A study of Mus musculus with 5 samples.

Results

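The ligands of the epidermal growth factor (EGF) family and the ErbB receptors that bind them were followed through the uterine luminal layer before and after embryo attachment. The members were the 10 genes of the count table named *Hbegf*, *Areg*, *Ereg*, *Btc*, *Tgfa*, *Nrg1*, *Egfr*, *Erbb2*, *Erbb3* and *Erbb4*, that is 6 ligands and 4 receptors among 23420 genes. RNA-seq counts came from 5 libraries of pregnant wildtype C57BL/6N females, with day 1 set as the day of the vaginal plug, and the luminal layer was cut from frozen sections by laser microdissection. The first 3 libraries were taken in the morning of day 3 (D3 am), in the morning of day 4 (D4 am) and in the evening of day 4 (D4 pm), with 1 library each. In the morning of day 5, after attachment, 1 library held the layer away from the embryo (D5 away, or the away library) and 1 the layer around it (D5 around, or the around library). The labels also call the away library M pole and the around library AM pole, for the mesometrial and anti-mesometrial sides of the uterus, so distance from the embryo and pole cannot be told apart. The females of day 5 had received Chicago blue dye intravenously, which marks implantation sites. The number of mice behind a library is not given in the sources used here. With 1 library per condition no difference below has a replicate check and no test was possible, so a difference is one between libraries and not between conditions.

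EGF family ligands are made as precursors anchored in the cell membrane, and proteases of the Adam family cut them free. A bound ligand brings ErbB receptors together in pairs, and their tyrosine kinases then start Ras-ERK and PI3K-Akt signalling. Erbb2 has no known ligand of its own and Erbb3 has little kinase activity, so both work through a partner. In the mouse uterus, *Hbegf* is known for its expression in the luminal epithelium at the site of the blastocyst around the time of attachment, and *Areg* for its response to progesterone.

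Library totals ranged from 15334674 to 19529491 counts, and a floor of 3 counts equalled 0.16 to 0.19 CPM (counts relative to the library total after scaling between libraries). All 8 luminal epithelial markers were counted in every library, and their summed level was between 3418 and 11955 CPM. Most of the highest sum was *Calb1*, at 8022 CPM in D4 am against 72.3 CPM in D5 away. The sum was 6655 CPM in D5 around against 3418 CPM in D5 away. Of the 8 markers, 4 were higher past 2-fold in D5 around than in D5 away (*Krt19*, *Cldn4*, *Cdh1* and *Epcam*) and 1 was lower (*Calb1*). The around library also stood apart in markers of other cells. All 9 markers of the embryo were counted in it against 5 of 9 in each of the other 4 libraries, and *Pou5f1*, *Nanog*, *Cdx2* and *Hand1*, at 0 in those 4, had 68, 10, 22 and 5 counts there. The summed embryo list was at 301 CPM around the embryo against 85.3 to 144 CPM elsewhere. Most of each sum was *Krt7*, at 185 CPM around the embryo and 72.3 to 140 CPM elsewhere, so the sums are no measure of embryo RNA. The summed lists of the decidua (827 CPM against 90.2 to 229 CPM) and of smooth muscle (389 CPM against 7.81 to 27.4 CPM) were also highest there, and were carried by *Gja1* at 756 CPM and *Des* at 359 CPM, with the decidual marker *Prl8a2* counted only around the embryo. The sum of the endothelial list was 82.8 CPM against 11.4 to 28.7 CPM, of which *Cdh5* gave 72.4 CPM, while 3 of its 5 genes were lower past 2-fold than in D4 pm and 2 were higher. The glandular list was at 60.8 CPM against 7.51 to 37.7 CPM, of which *Lif*, which is also known in the stroma around attached embryos, gave 17.9 CPM, and *Sox9* was at 29.9 CPM against 36.2 CPM in D4 pm. The stromal list summed to 429 CPM against 579 to 670 CPM and was split, with 3 of 10 genes higher than in D4 pm, *Hand2* among them at 134 against 6.47 CPM, and 4 lower. The immune list was at 90 CPM against 233 to 343 CPM, with 5 of 6 genes lower than in D4 pm and 1 higher. The part of these cells in the values of the around library given below was not tested, and in such bulk libraries fewer cells of a type and less RNA per cell cannot be told apart.

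Levels are given as RPKM, the CPM divided by the gene length in kilobases, and this is the scale on which genes are compared with each other. *Areg* was the most abundant member in all 5 libraries. In D4 pm it was at 53.2 RPKM, followed by *Erbb2* at 8.42, *Hbegf* at 5.83, *Egfr* at 3.39, *Erbb3* at 2.83 and *Tgfa* at 2.78 RPKM, where *Egfr* overlapped *Erbb3* and *Erbb3* overlapped *Tgfa* in their counting intervals. Around the embryo on day 5, 4 ligands stood above every receptor. *Areg* was at 2371 RPKM, *Ereg* at 202, *Hbegf* at 135 and *Btc* at 81.8 RPKM, each apart from the next beyond its counting interval. Below them came *Erbb2* at 9.44 RPKM, and then *Erbb3* at 7.59, *Tgfa* at 6.46, *Nrg1* at 5.4 and *Egfr* at 4.74 RPKM, of which each overlapped with the next. Away from the embryo the order was *Areg* at 29.4, *Hbegf* at 19.6, *Erbb2* at 13.0, *Erbb3* at 12.2, *Tgfa* at 10.3, *Btc* at 5.32 and *Egfr* at 2.8 RPKM, with *Ereg* and *Nrg1* under 1 RPKM, and there the receptors *Erbb2* and *Erbb3* overlapped in their intervals.

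**Figure D1:**
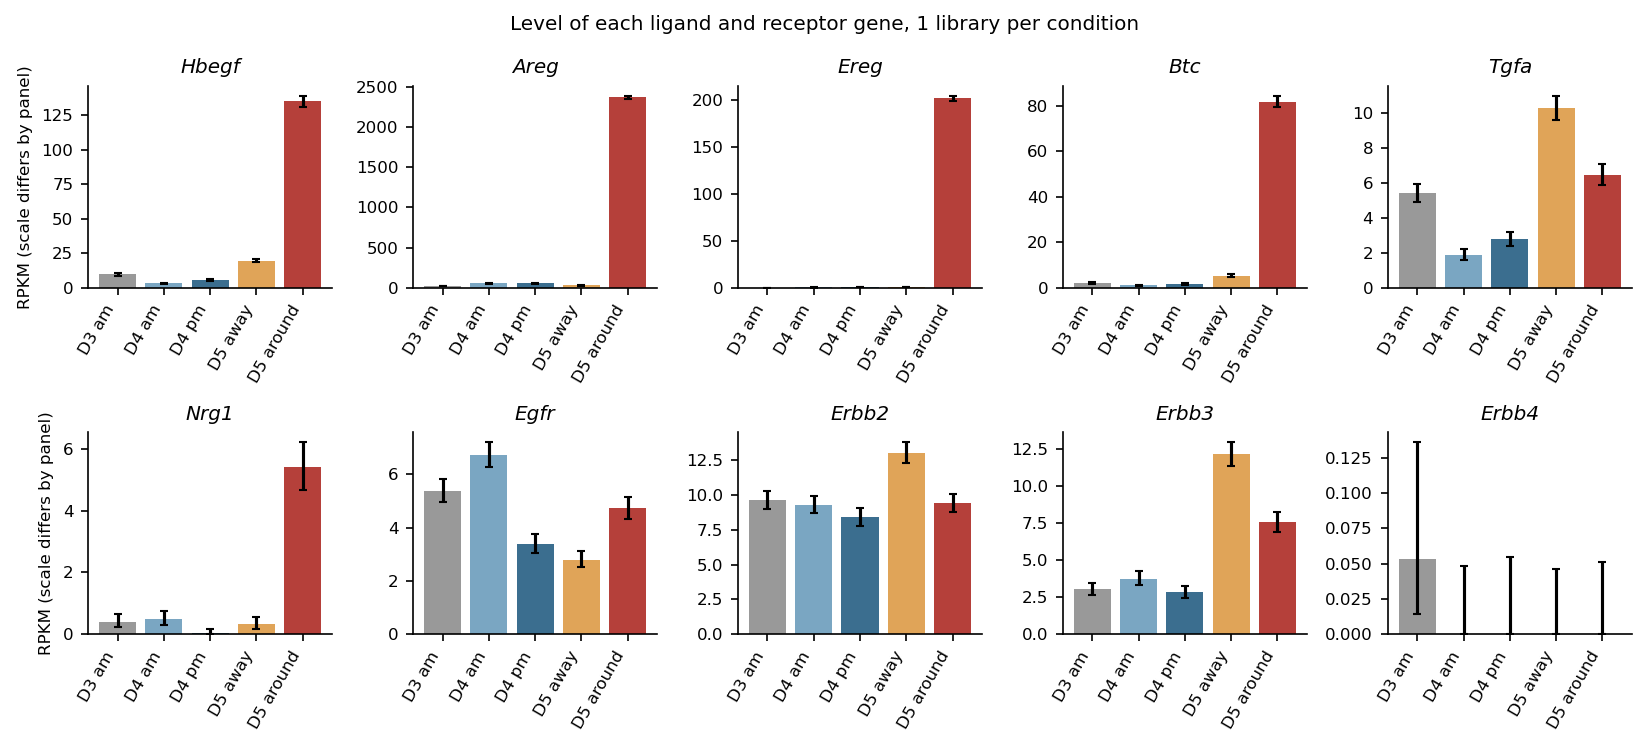
Level of each ligand and receptor gene in RPKM (y axis, from 0, scaled separately in each panel) in the 5 libraries (x axis; D3 am is day 3 morning, D4 am and D4 pm are day 4 morning and evening, and D5 away and D5 around are the day 5 libraries). Bars are single libraries and lines are exact 95% Poisson intervals that cover counting error only. *Areg*, *Ereg*, *Btc*, *Hbegf* and *Nrg1* have their highest bar around the embryo, *Tgfa*, *Erbb2* and *Erbb3* away from it, and *Egfr* on day 4 morning.

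The summed level of the 6 ligands was 38.9 RPKM in D3 am, 62.1 in D4 am, 64.1 in D4 pm, 65.7 in D5 away and 2802 RPKM in D5 around. The 4 receptors together were at 18.1, 19.8, 14.6, 28.0 and 21.8 RPKM in the same order. The ratio of summed ligand to summed receptor RPKM was between 2.15 and 4.39 in 4 libraries and 129 in the around library. *Areg* alone gave 21.1, 55.2, 53.2, 29.4 and 2371 RPKM of the ligand sums in the same order, so the high ratio of the around library rests largely on this gene. Among the other libraries the ratio also moved with the receptors. From D4 am to D4 pm it went from 3.14 to 4.39 while *Areg* was slightly lower and the receptor sum went from 19.8 to 14.6 RPKM. In D5 away it was 2.35, with a ligand sum close to that of D4 pm and the highest receptor sum.

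Differences between libraries are log2 differences of scaled CPM with a prior count of 2, and a gene is counted as changed where it is past 2-fold. Values in brackets are exact 95% counting intervals of the log2 ratio of the scaled counts, without the prior count. A total of 12918 genes had a mean of at least 1 CPM before scaling, and 9 members were among them. *Erbb4* was not, and *Nrg1* passed only through the around library (mean of 2.56 CPM over all libraries, and 0.685 CPM without the around library), so counts over the members are a description. The 5 comparisons share libraries and are not independent of each other.

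From D3 am to D4 am, *Areg* and *Ereg* were higher past 2-fold, where 7.96% of all genes were, and *Hbegf*, *Btc* and *Tgfa* were lower past 2-fold, where 11% of all genes were. From D4 am to D4 pm no member was higher past 2-fold (7.15% of all genes), and *Nrg1* was lower, with 18 counts and then 1 (6.96% of all genes). Away from the embryo on day 5, 5 members were higher than in D4 pm (12.7% of all genes) and none lower (12.9%). They were the ligands *Hbegf*, *Btc*, *Tgfa* and *Nrg1* and the receptor *Erbb3*, of which *Nrg1* rests on 1 count in D4 pm. Around the embryo 7 members were higher than in D4 pm (19.3% of all genes) and none lower (20.4%), namely all 6 ligands and *Erbb3*. Between both libraries of day 5, the 5 ligands other than *Tgfa* were higher around the embryo (13.7% of all genes) and no member was lower past 2-fold (14.5%). Scaled to library totals, *Tgfa* and *Erbb3* were also lower past 2-fold in this last comparison.

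**Figure D2:**
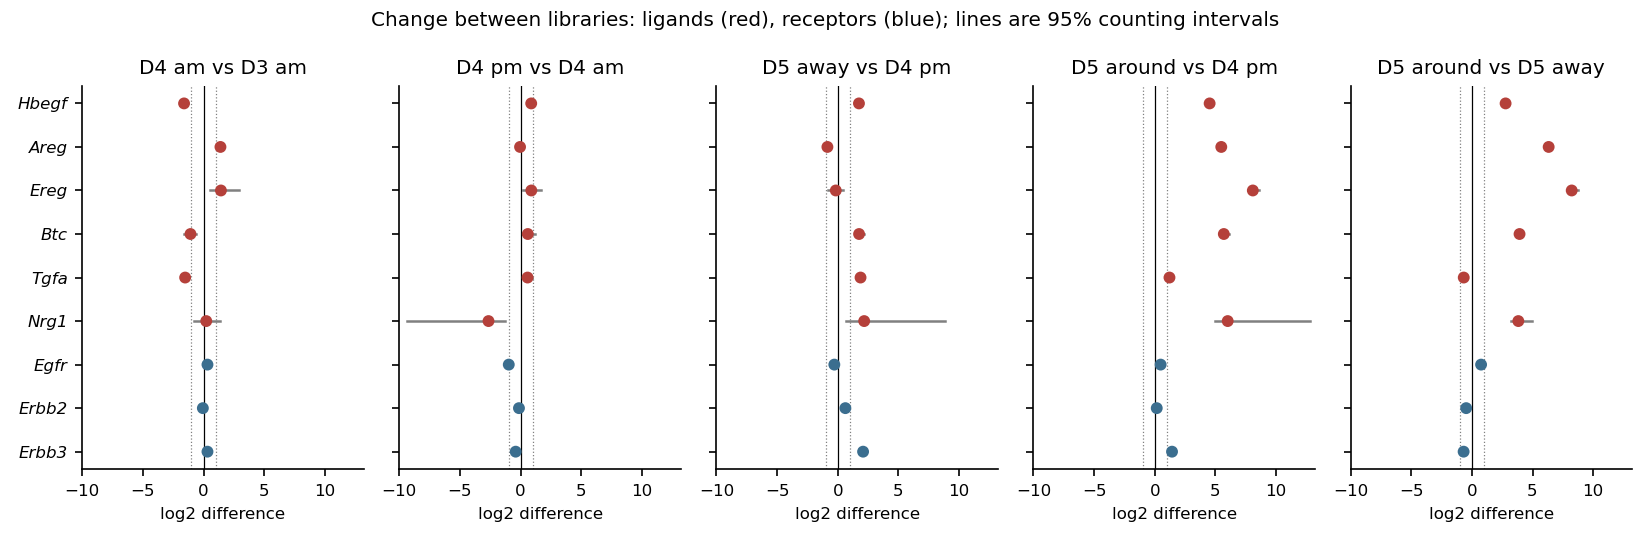
Log2 difference (x axis) of the 9 members with a mean of at least 1 CPM (y axis) in each of the 5 comparisons, ligands in red and receptors in blue. Grey lines are exact 95% counting intervals and dotted lines mark 2-fold. The 6 ligands lie between 1.21 and 8.08 in the comparison of the around library with D4 pm, and the 3 receptors between 0.16 and 1.42.

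*Areg* encodes amphiregulin, a ligand of Egfr. It was at 21.1 RPKM in D3 am, 55.2 in D4 am, 53.2 in D4 pm, 29.4 in D5 away and 2371 RPKM in D5 around. The around library lay far above the other 4, which spanned less than 3-fold. From D3 am to D4 am the log2 difference was 1.39 [1.23, 1.55], and from D4 am to D4 pm it was -0.05 [-0.18, 0.07]. From D4 pm *Areg* was 1.81-fold lower away from the embryo (log2 -0.85 [-1.0, -0.71]) and 44.6-fold higher around it (log2 5.48 [5.39, 5.57]). Between both sites of day 5 it differed 80.6-fold (log2 6.33 [6.22, 6.45]). With 48285 counts around the embryo, it moved from place 2861 among all genes ordered by CPM in D4 pm to place 20.

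*Ereg* encodes epiregulin, which binds Egfr and Erbb4. It was close to absent before attachment, with 9 counts in D3 am, 28 in D4 am and 47 in D4 pm, and it had 50 counts away from the embryo. Around the embryo it had 14198 counts. On the scale of RPKM these were 0.123, 0.379, 0.721, 0.644 and 202. From D4 pm the ratio of scaled counts was 0.893 for D5 away (log2 -0.16 [-0.77, 0.44]) and 280 for D5 around (log2 8.08 [7.72, 8.58]), and around and away libraries differed 314-fold (log2 8.23 [7.89, 8.72]). These differences were the widest of the members, and they took places 41 and 27 of 12918 genes ordered from the highest log2 difference. The step from D3 am to D4 am (log2 1.43 [0.5, 2.89]) rests on the 9 counts of day 3.

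*Btc* encodes betacellulin, which also binds Egfr and Erbb4. It was at 2.18 RPKM in D3 am, 1.01 in D4 am, 1.54 in D4 pm, 5.32 in D5 away and 81.8 in D5 around. Unlike *Areg* and *Ereg*, *Btc* was lower in D4 am than on day 3 (log2 -1.08 [-1.61, -0.62]). On day 5 it was 3.44-fold higher away from the embryo than in D4 pm (log2 1.76 [1.4, 2.18]) and 52.9-fold higher around it (log2 5.69 [5.39, 6.09]). Both sites of day 5 thus lay above the earlier libraries, and the around library was 15.4-fold above the away library (log2 3.93 [3.77, 4.12]).

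*Areg*, *Ereg* and *Btc* lie near each other on chromosome 5, together with *Epgn*, the gene of the ligand epigen. In the coordinates of the count table (GRCm38/mm10), *Ereg* lies at chr5:91074617-91093649 and *Areg* at chr5:91139615-91148432 on the plus strand, and *Btc* at chr5:91357261-91402994 on the minus strand. The exons of *Ereg* overlap those of *Gm19610*, a gene not analysed here. The table held 5 genes in the 375 kb from the start of *Epgn* to the end of *Btc*, and this region and its flanks were chosen for description after their values were seen. *Epgn*, whose start lies at -112.1 kb from that of *Areg*, had 0, 3, 0 and 2 counts in the first 4 libraries and 88 around the embryo. The long noncoding RNA gene *Gm19619*, between *Areg* and *Btc*, had 37 counts around the embryo and 0 in every other library. All 5 genes were thus highest in the around library. Of the flanking genes, *Mthfd2l*, next to *Epgn*, had 173 counts in D4 pm, 279 away and 188 around the embryo, with a log2 difference between the day 5 sites of -0.42 [-0.7, -0.15]. Of the chemokine genes beyond *Mthfd2l*, which had few counts, Il8 had 0 counts away and 14 around the embryo, Cxcl2 had 3 and 23 (log2 2.42 [1.36, 5.46]) and Cxcl1 had 15 and 28 (log2 0.95 [0.09, 2.06]). Il8 and Cxcl2 were not highest around the embryo. Il8 had 34 counts in D3 am and 32 in D4 am, and Cxcl2 had 26 in D4 pm. Cxcl1 had 20 counts in D4 pm. Il8 is the name in the count table and is not found in GENCODE vM21. *Parm1* on the other side had 49 counts in D4 pm, 36 away and 230 around, and a log2 difference between the day 5 sites of 2.75 [2.31, 3.37], although it had 291 counts in D3 am. *Rchy1*, farther out, differed between the day 5 sites by 0.19 [0.08, 0.3] on the log2 scale.

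**Figure D3:**
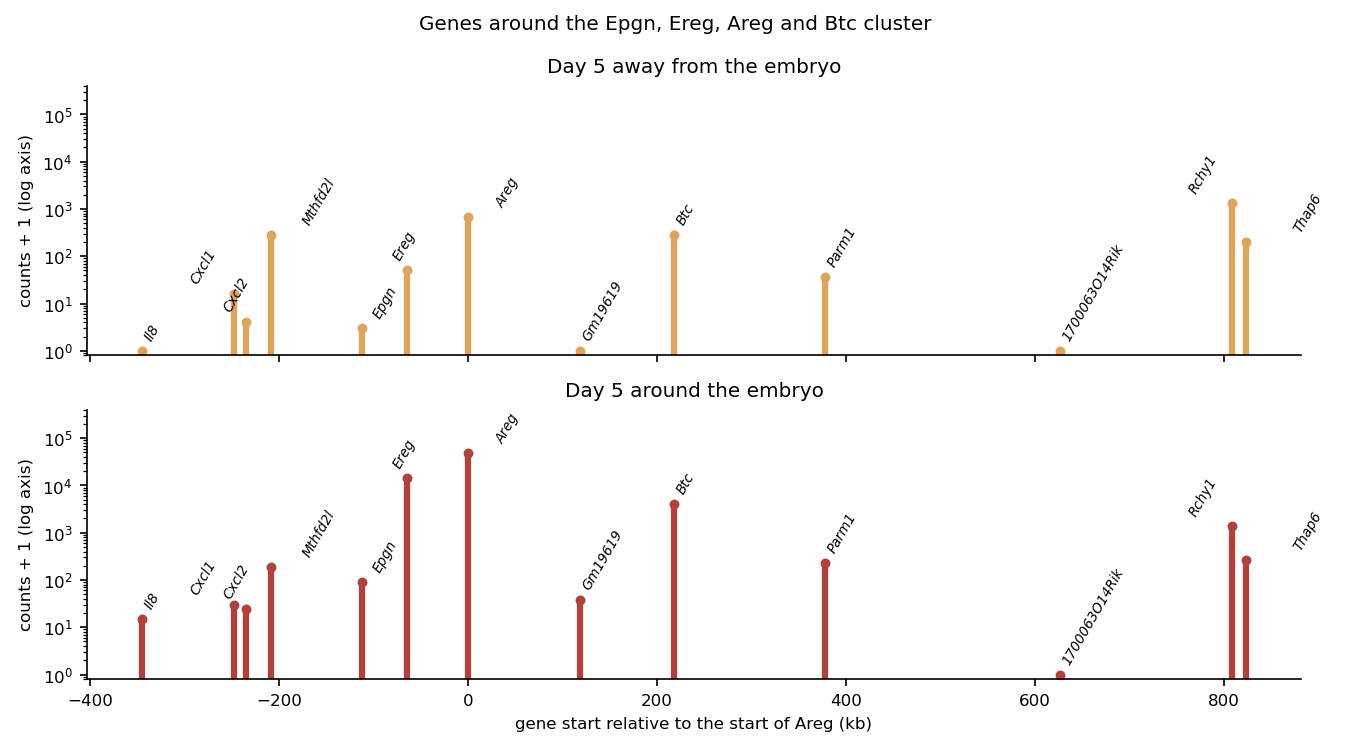
Counts plus 1 (y axis, log scale) of the genes around the *Epgn*, *Ereg*, *Areg* and *Btc* cluster, placed by the distance of the gene start from that of *Areg* in kb (x axis), in the away library above and the around library below. *Epgn*, *Ereg*, *Areg*, *Gm19619* and *Btc* are taller around the embryo, as are the sparsely counted Il8 and Cxcl2 and also *Parm1*, while *Mthfd2l* and *Rchy1* have similar heights in both panels. The earlier libraries, in which Il8, Cxcl2 and *Parm1* had their highest counts, are not shown.

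The promoters of the cluster are shown because its genes were high in the same library. RefSeq promoters (GRCm38.p6) matched 6 of the 10 members, *Areg*, *Btc*, *Tgfa*, *Egfr*, *Erbb2* and *Erbb4*, and *Epgn*. Below are the 250 bases before the start site of *Areg* (chr5:91139349-91139598, plus strand), *Btc* (chr5:91402995-91403244, minus strand) and *Epgn* (chr5:91027267-91027516, plus strand), 5′ to 3′, with motif matches in capitals.
Areg: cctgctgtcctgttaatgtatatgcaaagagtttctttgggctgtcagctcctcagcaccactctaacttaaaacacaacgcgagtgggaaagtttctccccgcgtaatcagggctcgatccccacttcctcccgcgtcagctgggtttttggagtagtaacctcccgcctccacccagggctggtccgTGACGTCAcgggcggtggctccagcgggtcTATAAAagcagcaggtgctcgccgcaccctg
Btc: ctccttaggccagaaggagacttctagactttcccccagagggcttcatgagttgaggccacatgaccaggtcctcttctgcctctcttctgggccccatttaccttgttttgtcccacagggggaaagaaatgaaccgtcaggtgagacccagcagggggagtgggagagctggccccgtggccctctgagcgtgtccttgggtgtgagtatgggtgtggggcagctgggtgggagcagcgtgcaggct
Epgn: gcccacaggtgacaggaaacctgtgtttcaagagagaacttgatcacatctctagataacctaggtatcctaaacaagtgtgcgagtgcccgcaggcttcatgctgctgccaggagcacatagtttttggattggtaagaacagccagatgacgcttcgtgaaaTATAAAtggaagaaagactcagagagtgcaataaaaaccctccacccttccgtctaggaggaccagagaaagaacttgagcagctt
The motifs searched on both strands were the cAMP response element TGACGTCA, the AP-1 site TGANTCA, the Stat site TTCNNNGAA and the TATA box TATAAA, and none of the matches overlapped. *Areg* held the cAMP response element from -61 to -54 and the TATA box from -31 to -26 relative to the RefSeq start. Of 32851 promoters of the same length, 1.55% held the former and 12.4% the latter. *Epgn* held the TATA box from -86 to -81, and *Btc* held none of the 4 motifs. The AP-1 site, held by 6.75% of all promoters, and the Stat site, held by 7.02%, were found in none of the matched promoters. These matches describe the letters only.

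*Hbegf*, on chromosome 18, encodes the heparin-binding ligand of Egfr and Erbb4. Its levels were 9.72 RPKM in D3 am, 3.16 in D4 am, 5.83 in D4 pm, 19.6 in D5 away and 135 in D5 around. The course was lowest in D4 am (log2 -1.61 [-1.91, -1.34] from day 3), and by the evening it was 1.84-fold higher (log2 0.87 [0.57, 1.2]). From D4 pm *Hbegf* was 3.37-fold higher away from the embryo (log2 1.75 [1.54, 1.97]) and 23.2-fold higher around it (log2 4.52 [4.34, 4.74]). The around library was 6.87-fold above the away library (log2 2.78 [2.68, 2.88]), the narrowest gap among the 5 ligands that were higher there.

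*Tgfa* encodes transforming growth factor alpha, a ligand of Egfr. It was at 5.41 RPKM in D3 am, 1.87 in D4 am, 2.78 in D4 pm, 10.3 in D5 away and 6.46 in D5 around. It was the one ligand with its highest level away from the embryo. From D4 pm the log2 difference was 1.88 [1.66, 2.13] away and 1.21 [0.97, 1.47] around, and the around library was 1.6-fold below the away library (log2 -0.67 [-0.84, -0.51]). *Tgfa* lies at chr6:86195251-86275449 on the plus strand, and its exons overlap those of *Gm43917*, a gene not analysed here.

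*Nrg1* encodes neuregulin 1, a ligand of Erbb3 and Erbb4. It had 15 counts in D3 am, 18 in D4 am, 1 in D4 pm, 13 in D5 away and 193 in D5 around. The single count of D4 pm makes differences from it imprecise. The ratio of scaled counts of the around library to D4 pm was 179, with an interval of the log2 ratio from 4.99 to 12.79. Against the away library the ratio was 16.4 (log2 3.83 [3.23, 4.97]). The exons counted span chr8:31818028-31918203, whereas GENCODE vM21 gives *Nrg1* from 31814551 to 32884029, so reads from exons outside the counted span did not enter its values.

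From the lowest to the highest library, the receptors other than *Erbb4* spanned 0.63 to 2.09 on the log2 scale, and the ligands 2.45 to 10.39. *Egfr*, the receptor of most of the ligands above, was at 5.39 RPKM in D3 am, 6.72 in D4 am, 3.39 in D4 pm, 2.8 in D5 away and 4.74 in D5 around. It was 1.98-fold lower in D4 pm than in the morning (log2 -0.98 [-1.17, -0.8]), just short of 2-fold. Against D4 pm the log2 difference was -0.28 [-0.5, -0.06] in D5 away and 0.48 [0.28, 0.68] in D5 around. The level around the embryo was within the range of the earlier days. *Egfr* lies at chr11:16752203-16913907 on the plus strand.

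*Erbb2*, the coreceptor with no known ligand, was at 9.67, 9.3, 8.42, 13.0 and 9.44 RPKM from D3 am to the around library. Its log2 difference from D4 pm was 0.63 [0.49, 0.77] in D5 away and 0.16 [0.01, 0.31] in D5 around. It lies at chr11:98412484-98437716 on the plus strand, and some of its exon bases are shared with *Mien1*, which was counted too, and whether the counting used strand is not given in the sources used here.

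*Erbb3*, which binds neuregulins, was at 3.03 RPKM in D3 am, 3.77 in D4 am, 2.83 in D4 pm, 12.2 in D5 away and 7.59 in D5 around. It was the receptor with the widest range. Both libraries of day 5 were past 2-fold above D4 pm, 4.3-fold away (log2 2.09 [1.87, 2.34]) and 2.68-fold around (log2 1.42 [1.18, 1.68]). Around the embryo *Erbb3* was 1.6-fold below the away library (log2 -0.68 [-0.84, -0.52]). It lies at chr10:128569368-128589501 on the minus strand.

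*Erbb4*, the other neuregulin receptor, had 4 counts in D3 am and 0 in each later library. A count of 0 allows up to 3 counts, which is 0.177 CPM in the around library and 0.16 CPM in the away library. *Erbb4* mRNA, from chr1:68039966-69108059 on the minus strand, was thus not detectable at this depth from day 4 on. All 10 members are protein-coding genes in GENCODE vM21.

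Of the 5 other ligands, *Nrg4* alone had a mean of at least 1 CPM, and it was lower on day 5. *Nrg4*, whose product binds Erbb4, had 346 counts in D3 am, 398 in D4 am, 220 in D4 pm, 79 in D5 away and 2 in D5 around. From D4 pm the log2 difference was -1.7 [-2.12, -1.35] for D5 away, and for D5 around the interval of the log2 ratio ran from -9.94 to -5.02. *Egf* itself had 17, 2, 3, 2 and 6 counts in the order of the libraries, *Nrg2* had 3, 31, 2, 2 and 7, and *Nrg3* had none.

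In the course over the 5 libraries some members were alike. Likeness was measured as the root mean square difference of log2 CPM after each gene was centred on its own mean, over 5 points that share libraries and depth, and it is a description. *Hbegf* and *Btc* were nearest to each other at 0.49, and *Tgfa* and *Erbb3* at 0.59. *Egfr* and *Erbb2* were nearest to each other at 0.59, but their whole ranges were only 1.26 and 0.63 on the log2 scale. Between the day 5 sites these 2 receptors differed in opposite directions (around against away log2 0.76 for *Egfr* and -0.47 for *Erbb2*), so their nearness is no shared course. The member nearest to *Ereg* was *Areg* at 1.32, that nearest to *Areg* was *Btc* at 1.22 and that nearest to *Nrg1* was *Hbegf* at 1.23. Among 10398 genes, those nearest to *Ereg* were *Obp2a* at 0.6, *Trim15* at 0.78 and *BC051665* at 0.8. *Obp2a* had 26 counts in D4 pm, 11 away and 2294 around the embryo. For *Erbb3* they included *Mid1ip1* at 0.13 and *Irak2* at 0.15, and *Mid1ip1* had 3711, 14866 and 8530 counts in the same libraries.

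The genes that release the ligands were described by a list of sheddases, their partners and inhibitors, of which 14 of 15 were in the table. Around the embryo 8 were higher than in D4 pm (19.3% of all genes) and none lower (20.4%), with a median log2 difference of 1.21 against -0.01 over all genes. Away from it 2 were higher (12.7% of all genes) and 2 lower (12.9%), with a median of 0.03 against 0.0 over all genes. The protease *Adam19* had 53 counts in D4 pm, 60 away and 328 around the embryo (log2 2.48 [2.1, 2.97] from D4 pm). *Rhbdf2*, a carrier of Adam17, had 393, 1137 and 1400 counts (around log2 1.72 [1.56, 1.89]), and its binding partner *Frmd8* had 781, 1790 and 2617 counts (around log2 1.63 [1.52, 1.75]). *Furin*, which cuts Adam precursors, was also higher around the embryo (log2 1.48 [1.35, 1.61]). Between the day 5 sites 7 of the 14 were higher around the embryo (13.7% of all genes) and none lower (14.5%). They included the protease *Adam10*, with 2036 counts away and 4723 around (log2 1.36 [1.28, 1.43]). They also included the inhibitor *Timp3*, with 711 and 1402 counts (log2 1.12 [0.99, 1.26]). *Timp3* had been lower in D4 pm than in D4 am (log2 -1.17 [-1.28, -1.07]). *Rhbdf1* was highest away from the embryo, with 140 counts in D4 pm, 504 away and 401 around.

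Among 9 cell-surface partners of the ligands and receptors, 5 were higher around the embryo than in D4 pm (19.3% of all genes) and none lower (20.4%), with a median of 1.11, and away from it 2 were higher (12.7% of all genes) and 2 lower (12.9%), with a median of 0.42. *Sdc1*, a heparan sulfate proteoglycan, had 1134 counts in D3 am, 283 in D4 am, 374 in D4 pm, 3926 in D5 away and 7293 in D5 around. Its log2 difference from D4 pm was 3.13 [2.99, 3.3] away and 4.17 [4.03, 4.33] around. *Muc4*, a membrane mucin that binds Erbb2, was lower in D4 am than on day 3 (log2 -3.0 [-3.43, -2.66]) and higher around the embryo than in D4 pm (log2 2.52 [2.25, 2.85]). *Cd9*, a tetraspanin that associates with the Hbegf precursor, had 19354 counts in D4 pm, 11105 away and 33825 around the embryo. It was lower in D5 away than in D4 pm (log2 -1.05 [-1.09, -1.02]) and higher in D5 around than in D5 away (log2 1.75 [1.72, 1.78]). *Sdc4* was at 12405, 16857 and 40663 counts in these libraries (around against away log2 1.41 [1.39, 1.44]).

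Of 20 negative regulators of the receptors and of the ERK pathway, 8 were higher (19.3% of all genes) and 1 was lower (20.4%) around the embryo than in D4 pm, with a median of 0.38. Away from it 2 were higher and 1 was lower, which is no more than the 12.7% and 12.9% of all genes, with a median of 0.24. *Spry4*, a Sprouty inhibitor of Ras-ERK signalling, had 61 counts in D4 pm, 177 away and 754 around the embryo (around log2 3.48 [3.14, 3.92]). *Dusp5*, an ERK phosphatase, had 47, 67 and 342 counts (log2 2.71 [2.31, 3.23]). *Errfi1*, which binds and inhibits Egfr, had 2023, 2845 and 7344 counts (log2 1.75 [1.68, 1.82]). Between the day 5 sites 7 of the 20 were higher around the embryo (13.7% of all genes) and 3 were lower (14.5%). The lower genes were *Lrig3*, with 232 counts away and 43 around the embryo (log2 -2.24 [-2.79, -1.81]), *Spry2* (log2 -1.7) and *Spry1* (log2 -1.32).

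Of the 24 signal transducers, 3 were higher and 1 was lower around the embryo than in D4 pm (median 0.29), and 2 were higher and 1 was lower away from it (median 0.17). These shares lie below those of all genes, which were 19.3% and 20.4% around and 12.7% and 12.9% away. The adaptor *Gab2* had 76 counts in D4 pm, 323 away and 348 around the embryo, and the ERK kinase gene *Map2k1* had 1405, 2112 and 4338 counts. *Pik3r3*, a regulatory subunit of PI3K, was lower at both sites, with 1247, 308 and 343 counts (log2 -2.26 [-2.45, -2.09] away and -1.96 [-2.15, -1.8] around).

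The list of genes known to respond to ERK held 16 genes that are no members, of which 15 had a mean of at least 1 CPM, *Egr2* and *Fosl1* only through the around library. Without these 2 genes, 7 of 13 were higher around the embryo than in D4 pm (19.3% of all genes) and 2 lower (20.4%), with a median of 1.05, and away from it 2 were higher (12.7%) and 3 lower (12.9%), with a median of -0.24. From D4 am to D4 pm 7 of the 13 were higher (7.15% of all genes) and 2 lower (6.96%), with a median of 1.23 (against 0.0 over all genes). *Phlda1* had 72 counts in D4 pm, 112 away and 2302 around the embryo (around log2 4.86 [4.55, 5.25]). *Egr2*, an immediate early transcription factor, had 28, 2 and 562 counts in these libraries, and the interval of its log2 ratio between the day 5 sites was 6.42 to 11.33. *Fos* had 245 counts in D4 am and 1158 in the evening (log2 2.41 [2.22, 2.63]) but 360 away from the embryo (log2 -1.93 [-2.11, -1.77]). *Myc* was higher away from the embryo, with 561 counts in D4 pm and 2209 there (log2 1.72 [1.59, 1.86]).

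In the steps before attachment, from D3 am to D4 am none of the sheddases, surface partners, negative regulators or transducers was higher past 2-fold, and 3, 3, 4 and 0 of them were lower, where 7.96% of all genes were higher and 11% lower, with medians of -0.45, 0.46, 0.14 and 0.19 against 0.04 over all genes. The lower genes included *Sdc1* (log2 -2.01 [-2.21, -1.83]) and *Rhbdf1* (log2 -1.33 [-1.8, -0.94]). From D4 am to D4 pm 4 negative regulators were higher (7.15% of all genes) and none lower (6.96%), with a median of 0.43, among them *Lrig3* (43 and 98 counts, log2 1.33 [0.84, 1.92]) and *Dusp5* (7 and 47 counts, log2 2.61 [1.77, 4.32]). None of the surface partners or transducers was past 2-fold in that step, and of the sheddase list 2 were higher and 2 lower.

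**Figure D4:**
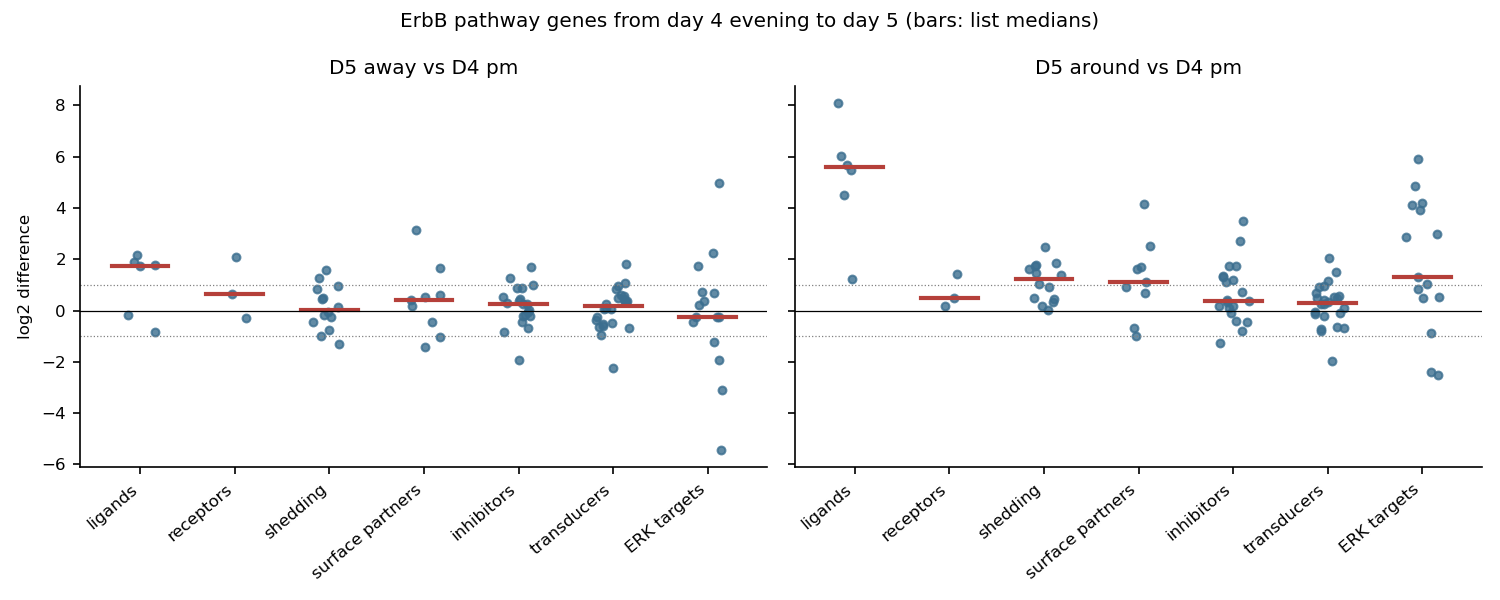
Log2 difference (y axis) of the genes of each list (x axis) between D4 pm and the away library (left) or the around library (right). Each point is a gene with a mean of at least 1 CPM, red bars are list medians and dotted lines mark 2-fold. The median of the 6 ligands is 1.75 on the left and 5.58 on the right, and that of the 24 transducers is 0.17 and 0.29. *Nrg1* among the ligands and *Egr2* and *Fosl1* among the ERK targets reached the mean of 1 CPM only through the around library. Their points on the right were thus favoured in advance. Without *Nrg1* the ligand median is 1.75 on the left and 5.48 on the right.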

How the data were processed

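The luminal layers were laser-microdissected, amplified with SMART-seq v.4 and sequenced as paired ends. Per the submitters' processing notes, reads were aligned with HISAT2 to GRCm38/mm10 and counted with featureCounts of Subread 2.0.0. The authors deposited whole-number counts per gene with the gene length, not normalized. The annotation and the settings for strand and multi-mapped reads are not given in the sources used here, and 27 gene names of the table had turned into dates.

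The counts were scaled by TMM in edgeR 4.0.16 (R 4.3.3), and log2 CPM carried a prior count of 2. The 12918 genes whose mean CPM before scaling reached 1 entered the comparisons, and RPKM used the deposited length. With 1 library per group no dispersion could be estimated, so 2-fold was the rule. Exact 95% Clopper-Pearson and Poisson intervals (scipy 1.17.1) cover counting error only, and PCR copies are not independent molecules. The scaling and the differences were tested on simulated data. There only a small share of genes was changed, as many up as down, so the test does not cover comparisons in which many genes differ.

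The members and lists were chosen with earlier results of these data known. Named besides all members were list genes past 2-fold with a mean CPM of at least 5, up to 4 per list and comparison, and the 3 genes nearest in course to *Ereg* and to *Erbb3*, of which 1 is not reported here. Alternatives were size factors of DESeq2 1.42.0, library totals, no filter, a prior count of 0.5 and edgeR exact tests at assumed dispersions of 0.1 and 0.4 with a false discovery rate under 0.05 and a change past 2-fold. Library totals without *Rn45s* and *Lars2*, TMM without the around library, and list counts without genes that reach the mean through the around library alone, were added after seeing the data.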

Additional observations from a re-analysis of the deposited data

Results flagged for a closer look

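*Areg* and *Egfr* were the members whose differences from D4 pm had opposite signs at the 2 sites of day 5 with counting intervals off 0 at both. *Ereg* also had opposite signs, but its interval away from the embryo included 0. The log2 difference of *Areg* was -0.85 in D5 away and 5.48 in D5 around, and that of *Egfr* was -0.28 and 0.48. With 1 library per site the difference between the sites was not tested, and both differences share the library of D4 pm. For *Egfr*, both differences were under 2-fold, and the one in D5 away depended on the scaling. It was -0.04 under library totals and -0.13 under totals without *Rn45s* and *Lars2*, and counting intervals do not cover such shifts.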

How the results depend on the processing

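The counts of members past 2-fold stayed within 1.5 times under DESeq2 size factors, a prior count of 0.5, no filter, library totals without *Rn45s* and *Lars2*, and, in the 3 comparisons it applies to, TMM without the around library. Under library totals, 2 members (*Tgfa* at -1.01 and *Erbb3* at -1.02) were lower around than away from the embryo in place of 0. Totals shifted the median of all genes by -0.29, 0.05, 0.23, -0.11 and -0.36 in the order of the comparisons, and some small differences changed sign with them: from day 3 to day 4 morning *Egfr* and *Erbb3* went from 0.32 to -0.01 and *Nrg1* from 0.22 to -0.08, and away from the embryo *Ereg* went from -0.16 to 0.07. Of 45 single differences, 18 moved under totals and 14 under totals without *Rn45s* and *Lars2*. In the latter setting *Tgfa* (-0.98) and *Erbb3* (-0.99) were just short of 2-fold lower around than away from the embryo.

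An edgeR exact test needs an assumed dispersion here and compares libraries only. At 0.1 it called 0 members higher and 0 lower from day 3 to day 4 morning, 0 lower from day 4 morning to evening and 1 higher (*Erbb3*) away from the embryo. Around the embryo it called *Areg*, *Ereg*, *Btc*, *Hbegf* and *Nrg1* against both D4 pm and the away library. *Nrg1* entered the test only through the around library and had 1 count in D4 pm, so its calls at either dispersion were favoured in advance. At 0.4 the first 4 counts were 0, 0, 0 and 0, and it called 4 higher around the embryo against D4 pm (*Areg*, *Btc*, *Ereg* and *Nrg1*) and 2 against the away library (*Areg* and *Ereg*).

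No paired analysis was possible because each group has 1 library, and the replicate number 1 that they share is only a name. Depth limits *Erbb4*, *Epgn* and *Nrg1*, which had under 20 counts in at least 4 libraries.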

Other observations

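Inside the lists of the pathway, related genes parted between the sites of day 5, and these genes were chosen after their values were seen. Among the Sprouty inhibitors, *Spry4* was higher around the embryo (754 counts against 177 away, log2 2.22), while *Spry2* (465 against 1673, log2 -1.7) and *Spry1* (182 against 507, log2 -1.32) were lower there. Among genes known to respond to ERK, *Ier3* (15950 against 1818, log2 3.28), *Egr1* (1895 against 112, log2 4.2) and *Plaur* (772 against 89, log2 3.23) were higher around the embryo, and *Etv5* (247 against 1298, log2 -2.24) and *Ccnd1* (191 against 641, log2 -1.59) were lower. The protease *Adam17*, the main sheddase of several ligands, had 1816 counts away and 1689 around the embryo, a log2 difference of 0.04.

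*Dusp4*, another ERK phosphatase, had 9 counts in D3 am, 0 in D4 am, 101 in D4 pm, 30 in D5 away and 80 in D5 around. Of the glandular markers, *Lif*, the cytokine that the study is about, had 36, 17, 0, 2 and 304 counts in the order of the libraries.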
